A study of Mus musculus with 7 samples.

Results

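The genes described here are the C-type lectins and Fc receptors of cells sorted from mouse hind-limb muscle, taken as every gene of the deposited table whose symbol is Clec followed by a digit, or Fcgr or Fcer followed by a digit. That rule, which uses names and no measured value, gave 39 genes of 23930, of which 32 were C-type lectins and 7 were Fc receptor genes. The study asked how chronic hypercapnia, a raised blood CO2, changes muscle satellite cells, the stem cells of skeletal muscle that carry the transcription factor Pax7. All mice carried an inducible Pax7-GFP reporter, in which a tamoxifen-activated Cre made from the Pax7 gene switches on a fluorescent protein, and all were induced with tamoxifen. From 12 weeks of age the mice were kept for 4 weeks in normocapnia (NC, 3 libraries, named NC1 to NC3) or hypercapnia (HC, 4 libraries, named HC1 to HC4; values are given in this order throughout) and cells were collected at 16 weeks. By the study's methods tamoxifen was given in chow over the first 2 of those 4 weeks, so that induction overlapped the exposure, the chamber held 10% CO2, controls breathed room air, and muscles were injured with cardiotoxin 3 days before the cells were taken, which the sample labels do not state. The title of the deposited table carries 40 hours, which neither the labels nor the methods of this experiment give and which is at odds with freshly sorted cells, so whether the cells were cultured is not settled. The labels give littermates of a C57/B6 background for every library, whereas the number at the end of the strain name rises by 1 with each library, from C57BL/6 in NC1 to C57BL/12 in HC4. The reporter marks cells by lineage and the sort selects on fluorescence alone, so that any other cells which passed the gate would be in the libraries. The source of RNA from other cell types was not tested. Neither source says whether a library is 1 animal or a pool, and if libraries were not separate animals the p-values measure only the spread between these libraries.

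C-type lectins are membrane or secreted proteins that share a fold, and many of them on macrophages and dendritic cells recognize fungal and bacterial sugars or the remains of dead cells. Fc receptors bind the constant part of antibodies, IgG for the Fc gamma receptors and IgE for the Fc epsilon receptors. Receptors of both families signal through a short tyrosine motif, the ITAM, which is carried by the receptor itself (Clec7a, Clec9a) or by a partner chain such as Fcer1g or Tyrobp and recruits the kinase Syk. Others, such as Fcgr2b, Clec12a and Clec4a2, carry an inhibitory motif, the ITIM, which recruits phosphatases. In injured muscle, receptors of this kind are known from the infiltrating macrophages that clear dying fibers, not from satellite cells.

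Most of these genes stand next to each other in the genome. In the RefSeq annotation of GRCm38.p6, Fcgr2b, Fcgr4 and Fcgr3 were direct neighbours among coding genes, the 9 genes Clec4a1, Clec4a3, Clec4a4, Clec4b1, Clec4a2, Clec4b2, Clec4n, Clec4d and Clec4e followed one another without interruption, and so did the 6 genes Clec12a, Clec12b, Clec1b, Clec9a, Clec1a and Clec7a. Promoter sequence from RefSeq was at hand for 32 of the 39 genes. The 150 bases before the annotated start of 5 of them are shown because the results below turn on these genes, and their values in each set of libraries, or for Fcgr1 its ratios to other receptors, are described there. Capitals mark AGAGGAA on either strand, letters that occur in binding sites of PU.1, the transcription factor that defines myeloid cells, and TTCNNNGAA, the pattern of a GAS element bound by STAT factors. The sequences are written 5′ to 3′ on the strand of the gene.
Fcgr1, chr3:96293970-96294119, minus strand: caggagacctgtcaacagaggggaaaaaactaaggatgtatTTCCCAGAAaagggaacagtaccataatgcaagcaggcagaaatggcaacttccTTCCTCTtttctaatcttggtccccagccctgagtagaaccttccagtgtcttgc
Fcgr4, chr1:171018776-171018925, plus strand: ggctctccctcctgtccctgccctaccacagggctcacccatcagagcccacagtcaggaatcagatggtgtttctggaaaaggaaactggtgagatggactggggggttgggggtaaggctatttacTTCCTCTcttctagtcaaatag
Clec4a3, chr6:122952494-122952643, plus strand: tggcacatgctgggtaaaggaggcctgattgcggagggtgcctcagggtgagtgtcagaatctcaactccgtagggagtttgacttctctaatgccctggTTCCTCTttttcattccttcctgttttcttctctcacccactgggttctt
Clec12a, chr6:129350094-129350243, plus strand: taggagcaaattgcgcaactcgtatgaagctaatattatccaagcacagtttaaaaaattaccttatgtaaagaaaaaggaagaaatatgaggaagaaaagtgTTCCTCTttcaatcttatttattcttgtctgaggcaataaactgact
Clec7a, chr6:129472780-129472929, minus strand: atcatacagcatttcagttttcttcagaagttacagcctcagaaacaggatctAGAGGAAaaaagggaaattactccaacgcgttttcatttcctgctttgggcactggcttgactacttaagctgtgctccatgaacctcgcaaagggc

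Each of these 5 promoters held AGAGGAA on one strand, and only Fcgr1 among the 5 also held TTCNNNGAA. Clec4a3 and Clec7a had 2 start sites each in the table, and the first that held a motif was printed. Over the 250 bases before the start, AGAGGAA was found in 13 of the 32 genes (40.6%) against 9.85% of all 27025 genes with a promoter in the table, and in 11 of the 18 that had an average of at least 10 RPM (reads scaled to a common library size) (61.1%) against 9.74% of the 6387 genes at that level. The 13 genes were Fcgr1, Fcgr3, Fcgr4, Clec4a1, Clec4a3, Clec4b1, Clec4b2, Clec4d, Clec4e, Clec5a, Clec7a, Clec12a and Clec16a. TTCNNNGAA was found in 2 of the 32 (Fcgr1 and Clec4a2), or 6.25%, against 8.13% of all genes. Both were among the 18 at 10 RPM or more, which makes 11.1% against 7.33% of the genes at that level. The motifs were chosen after the values of these genes had been seen, neighbours share ancestry, and a match of letters is a description and not a measured site.

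RNA was read with an amplicon panel that covers 1 short stretch per gene. A gene can therefore be compared between libraries, whereas the levels of different genes also depend on how well each amplicon copies, and no order between genes is drawn from them. Where a few genes of a list are named, they are those with the highest mean RPM in it, which does not rank the transcripts. Libraries held 14527445 to 23388710 reads, so that 1 read was worth 0.0428 to 0.0688 RPM and the limit that a count of 0 allows (3 reads) was 0.128 to 0.207 RPM. Pax7 itself was uneven, at 268 RPM in NC1, 4.34 to 8.25 RPM in the other normocapnia libraries and 20.1 to 79.5 RPM under hypercapnia. Macrophage markers were measured in every library of these Pax7-GFP sorted cells. The 10 markers summed to 3055 to 7806 RPM in normocapnia and 4109 to 6792 RPM in hypercapnia, with Csf1r at 337 to 537 RPM, although C1qa stayed under 1 RPM in all libraries while its partner C1qb was at 158 to 1061 RPM. In bulk RNA fewer cells of a type and less RNA per cell cannot be told apart. The labels give no sex, but NC1, NC2, HC1 and HC2 held 445 to 701 RPM of Xist and no read of Ddx3y, and NC3, HC3 and HC4 held 103 to 206 RPM of Ddx3y and at most 0.125 RPM of Xist. NC3 was thus the only normocapnia library with Ddx3y reads, and HC1 and HC2, like HC3 and HC4, were closer to each other than any other pair of libraries (chi-square per degree of freedom 22.5 and 26.0, against 98.5 to 476), so that the 4 hypercapnia libraries form 2 close pairs. NC3 also stood apart among the receptors, where it was the lowest library for 11 of the 28 genes that averaged at least 1 RPM.

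Of the 39 genes, 20 averaged at least 10 RPM, 8 averaged 1 to 10 RPM, 10 averaged under 1 RPM, and Clec2h had no read in any library. In all 7 libraries 18 of the 39 reached 10 RPM or more. A gene was called where the limma test on log2(RPM + 1) gave an unadjusted p under 0.05 and a fold above 1.5 on that scale, the thresholds of the study. By this rule 2 of the 39 genes, Clec11a and Clec2g, were higher in hypercapnia and 0 were lower, against 1.43% of all 23930 genes called higher and 1.14% called lower. No gene of the 39, and no gene of the table, passed the Benjamini-Hochberg adjustment, and the adjusted p of each of the 39 was 0.915 or more in limma. The count higher was 1 without NC2 (Clec4a3, beside 2.8% of all genes in that fit) or HC3 (Clec2g, beside 1.23%) and 0 without NC3, HC1 or HC2 (0.903% to 0.982%), and 1 gene (Clec4a2) was lower without NC1 (beside 2.07%). At an unadjusted p under 0.05 limma counted 3 of the 39 (Clec4b2 with a fold under 1.5), beside 4.66% of all genes, edgeR 2 of the 31 it tested (Clec2g and Fcgr4, not Clec11a), beside 6.06%, and DESeq2 4 of 38, beside 6.48%, and 0 passed the adjustment in edgeR or in DESeq2. The log2 difference was positive for 18 and negative for 10 of the 28 genes at 1 RPM or more, with a median of 0.15, beside 0.16 over all 12504 genes at that level. With median-of-ratios scaling the median of all those genes was 0.04, and the differences given here are on the scale of the deposited RPM.

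**Figure D1:**
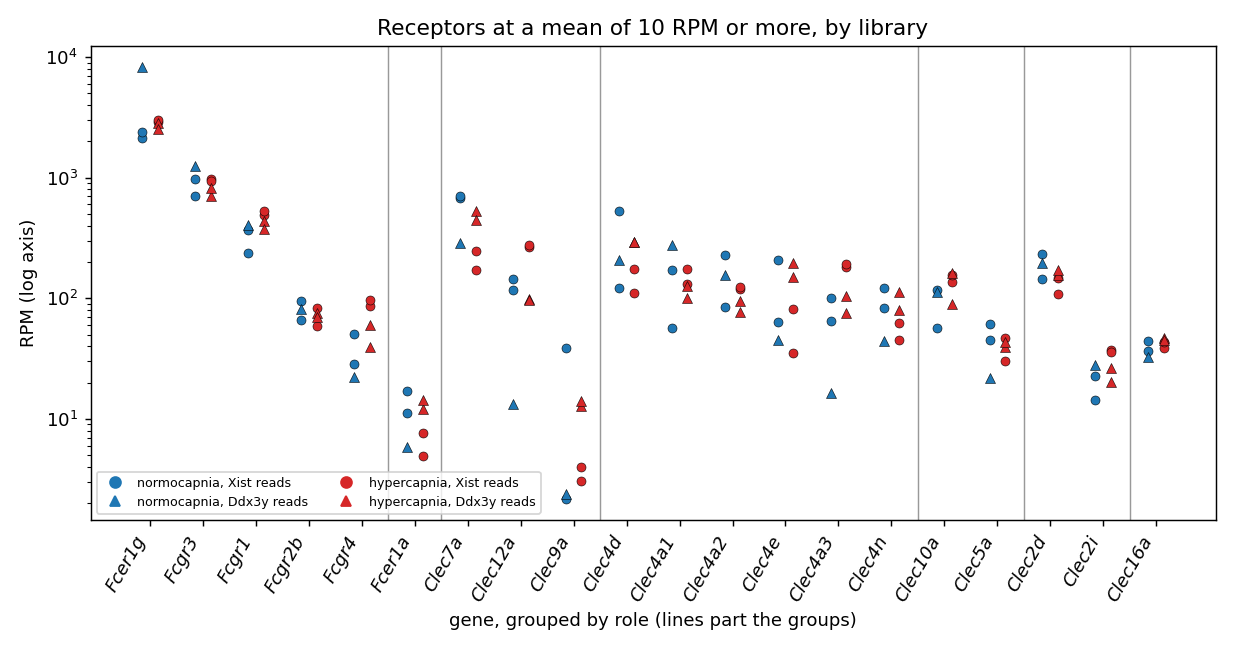
RPM of the 20 receptor genes that averaged at least 10 RPM, on a log axis, with 1 point per library, normocapnia in blue and hypercapnia in red, circles for libraries with Xist reads and triangles for libraries with Ddx3y reads. Fcer1g ran from 2134 to 8203 RPM, and Clec12a and Clec4a3 had their lowest value in NC3.

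Among the Fc gamma receptors, the activating Fcgr1 and Fcgr4 had higher means in hypercapnia and the inhibitory Fcgr2b and the low-affinity Fcgr3 did not, although none of the 5 genes of this group passed the test. Fcgr4, an activating receptor for IgG on myeloid cells, was at 50.9, 28.5 and 22.2 RPM in the normocapnia libraries and 86.0, 96.7, 60.4 and 39.2 RPM in the hypercapnia libraries. HC4 lay below NC1, and the other hypercapnia libraries lay above all normocapnia ones. The means were 33.9 ± 15.1 RPM in normocapnia (SD, n = 3) and 70.6 ± 25.9 RPM in hypercapnia (SD, n = 4), with a log2 difference of 1.04 (SE 0.42, limma unadjusted p = 0.0532). Without HC4 the difference was 1.29 (limma unadjusted p = 0.0218) and without NC1 it was 1.37 (limma unadjusted p = 0.026), both past the threshold, and without NC3 it was 0.79 (limma unadjusted p = 0.16). With Xist as a covariate it was 1.21 (limma unadjusted p = 0.00769), in a fit that called 3.4% of all genes higher. DESeq2 and edgeR also called Fcgr4 higher, whereas median-of-ratios scaling, quantile normalization and the macrophage covariate did not.

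Fcgr1, the high-affinity receptor for IgG, was at 239.7, 369.8 and 405 RPM in the normocapnia libraries and 489, 526, 437 and 375 RPM in the hypercapnia libraries. Only HC4, below NC3, kept the groups from standing apart. The means were 338 ± 87.2 RPM in normocapnia (SD, n = 3) and 457 ± 65.6 RPM in hypercapnia (SD, n = 4) and the log2 difference was 0.46 (SE 0.22, limma unadjusted p = 0.0888). Without NC1 it was 0.23 (limma unadjusted p = 0.212) and without NC3 it was 0.60 (limma unadjusted p = 0.0549). Fcgr3, which pairs with Fcer1g and is the broadly used activating receptor, was at 705, 979 and 1242 RPM in the normocapnia libraries and 974, 948, 709.9 and 820.3 RPM in the hypercapnia libraries, and the groups overlapped throughout, with a log2 difference of -0.15 (SE 0.22, limma unadjusted p = 0.53). Fcgr2b, the only inhibitory receptor of the group, was at 66.5, 95.8 and 82.1 RPM in the normocapnia libraries and 83.3, 59.5, 76.2 and 69.7 RPM in the hypercapnia libraries. Its difference of -0.17 (SE 0.17, limma unadjusted p = 0.355) was smaller than the range within either group. Fcgr2b and Fcgr3 share a stretch of 509 bases at 96.5% identity between their longest transcripts, and whether their amplicons lie in it is not known here.

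Fcer1g, the signaling chain that Fcgr1, Fcgr3, Fcgr4 and the IgE receptor share, was at 2134, 2379 and 8203 RPM in the normocapnia libraries and 2877, 2983, 2828 and 2550.2 RPM in the hypercapnia libraries. NC3 stood far above the other 6 libraries, which lay within 2134 to 2983 RPM. The log2 difference over all libraries was -0.31 (SE 0.50, limma unadjusted p = 0.565). Without NC3 it turned to 0.32 (limma unadjusted p = 0.0151), with HC1 to HC4 all above NC1 and NC2, a change under the fold threshold. Tyrobp, the other ITAM chain, was likewise highest in NC3, at 1245, 1363 and 2512 RPM in the normocapnia libraries and 1402, 1228, 1245 and 1109 RPM in the hypercapnia libraries.

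Within each library the level of Fcgr1 was also set against that of the other Fc receptor genes, which removes what scales all of them alike. The ratio of Fcgr1 to Fcgr3 was 0.34, 0.378 and 0.326 under normocapnia against 0.502, 0.555, 0.615 and 0.457 under hypercapnia. The ratio to Fcgr2b was 3.6, 3.86 and 4.94 in normocapnia and 5.86, 8.83, 5.73 and 5.38 in hypercapnia. Both ratios, which share Fcgr1, were higher in every hypercapnia library than in every normocapnia library, as was the ratio to Fcgr3 for 3.82% and to Fcgr2b for 4.33% of the 12503 other genes that averaged at least 1 RPM. Of the 10 pairs among Fcgr1, Fcgr3, Fcgr4, Fcgr2b and Fcer1g the other 8 overlapped. The ratio of Fcgr1 to Fcgr4 was 4.71, 13.0 and 18.2 in normocapnia and 5.68, 5.44, 7.23 and 9.56 in hypercapnia. Its median was thus lower in hypercapnia, at 6.46 against 13.0. The ratio of Fcgr1 to Fcer1g was 0.112, 0.155 and 0.0494 in normocapnia and 0.170, 0.176, 0.154 and 0.147 in hypercapnia. The ratio of Fcgr4 to Fcgr2b overlapped, at 0.765, 0.298 and 0.271 against 1.03, 1.62, 0.793 and 0.563. The ratio of Fcgr3 to Fcgr2b ran from 10.2 to 15.1 in normocapnia and from 9.31 to 15.9 in hypercapnia. The ratios were not tested, since they were formed after the levels had been seen, and they compare a pair of amplicons between libraries, not amounts of 2 receptors.

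**Figure D2:**
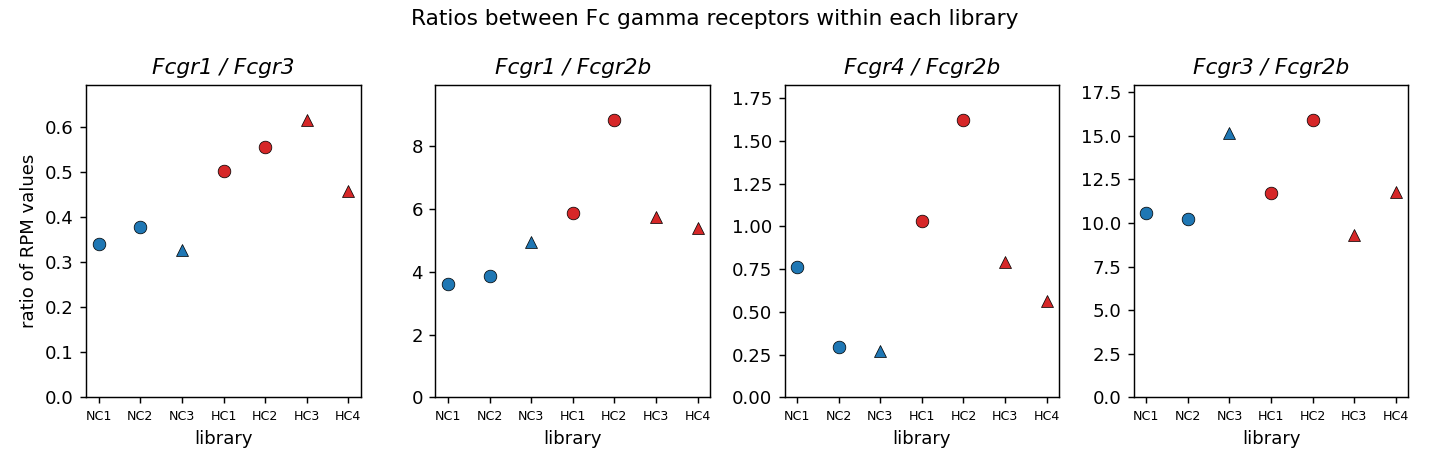
Ratios of RPM values between Fc gamma receptors in each library, normocapnia in blue and hypercapnia in red, circles for libraries with Xist reads and triangles for libraries with Ddx3y reads. Fcgr1 over Fcgr3 lay between 0.326 and 0.378 in normocapnia and between 0.457 and 0.615 in hypercapnia, while Fcgr3 over Fcgr2b overlapped.

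Of the IgE receptors, Fcer1a, the IgE-binding chain of mast cells and basophils, was at 17.1, 11.3 and 5.85 RPM in the normocapnia libraries and 7.66, 4.98, 12.1 and 14.4 RPM in the hypercapnia libraries, with a log2 difference of -0.19 (SE 0.47, limma unadjusted p = 0.706). Fcer2a, the low-affinity receptor known from B cells, stayed between 0 and 1.69 RPM. Mast cell genes were present in every library, with the 6 markers summing to 1272 to 1879 RPM in normocapnia and 852 to 2376 RPM in hypercapnia. Of these, Tpsb2, Cma1 and Cpa3 were at 143 to 783, 247 to 719 and 128 to 449.9 RPM, and the defining Ms4a2, the chain that pairs with Fcer1a, was at 9.32, 6.75 and 7.09 RPM in normocapnia and 4.24, 3.22, 14.4 and 10.1 RPM in hypercapnia. Both Fcer1a and Ms4a2 had their lowest values in HC2, and Ms4a2 its highest in HC3.

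The Dectin-1 cluster held large contrasts between libraries. Clec7a, which is Dectin-1, the receptor for fungal beta-glucan, was at 682, 711 and 289 RPM in the normocapnia libraries and 248, 171, 533 and 444 RPM in the hypercapnia libraries. NC1 and NC2 were the highest libraries and HC1 and HC2 the lowest, and NC3 lay among the hypercapnia values, the only library by which the groups overlapped. The log2 difference of -0.71 (SE 0.54, limma unadjusted p = 0.241) did not pass the test. Clec12a, an inhibitory receptor that senses uric acid crystals from dead cells, was at 144, 117 and 13.3 RPM in the normocapnia libraries and 269, 276, 99.0 and 97.2 RPM in the hypercapnia libraries. NC3 was far below all other libraries, HC1 and HC2 were above them, and HC3 and HC4 lay below NC1 and NC2. The log2 difference was 1.40 (SE 0.97, limma unadjusted p = 0.206), and without NC3 it was 0.33 (limma unadjusted p = 0.61). With Xist as a covariate it was 1.84 (limma unadjusted p = 0.00611) and was called, in a fit that called 3.4% of all genes higher. Clec9a, which binds exposed actin of dead cells and marks cross-presenting dendritic cells, was at 38.7, 2.18 and 2.41 RPM in the normocapnia libraries and 3.04, 4.02, 12.7 and 14.1 RPM in the hypercapnia libraries. One normocapnia library, NC1, had the highest value and the others of that group the lowest, with a log2 difference of 0.09 (SE 1.10, limma unadjusted p = 0.936). Xcr1, a defining marker of the same dendritic cells, was also highest in NC1, at 20.7 RPM against 0.556 to 5.89 RPM elsewhere. The other genes of the cluster were low. Clec1a, known from endothelium and myeloid cells, was at 1.28 to 1.61 RPM in normocapnia and 0.452 to 5.69 RPM in hypercapnia, Clec1b, the podoplanin receptor of platelets, was at 0.301 to 2.71 RPM in all, and Clec12b was at 0.275 to 1.35 RPM.

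The 9 genes of the Dectin-2 and DCIR cluster showed no common direction, and none was called by limma over the 7 libraries. Other settings called 3 of them at an unadjusted p, given here with the share of all genes called in that direction in the same fit. Clec4a3 was called higher by DESeq2 (2.49%), by edgeR without a filter (1.89%) and with Xist as a covariate (3.4%). It was also called higher with the replicate block (1.47%), without NC2 (2.8%) and in the libraries with Xist reads alone (1.6%). Clec4a2 was called lower without NC1 (2.07%), and Clec4b2 lower with a pseudocount of 0.1 RPM (1.69%). Of its DCIR-type genes, Clec4a3 was at 65.5, 101 and 16.3 RPM in the normocapnia libraries and 182, 192, 75.4 and 105 RPM in the hypercapnia libraries. NC3 was the lowest library, HC1 and HC2 were the highest, and HC3 lay between NC1 and NC2. The means were 60.8 ± 42.3 RPM in normocapnia (SD, n = 3) and 138 ± 57.2 RPM in hypercapnia (SD, n = 4) and the log2 difference was 1.41 (SE 0.71, limma unadjusted p = 0.0987). Without NC2 it was 1.94 (limma unadjusted p = 0.0488), past the threshold, and without NC3 it was 0.66 (limma unadjusted p = 0.238). Clec4a2, which is DCIR itself, went the other way in its means, at 84.1, 228 and 155 RPM in the normocapnia libraries and 119, 124, 94.8 and 77.1 RPM in the hypercapnia libraries, with a difference of -0.50 (SE 0.38, limma unadjusted p = 0.239). Without NC1 that difference was -0.88 (limma unadjusted p = 0.0274) and passed the threshold, and without NC2 it was -0.16 (limma unadjusted p = 0.647). Clec4a1 was at 57.3, 171 and 279 RPM in the normocapnia libraries and 132, 174, 128 and 100.1 RPM in the hypercapnia libraries, with NC1 lowest and NC3 highest and a difference of -0.10 (SE 0.56, limma unadjusted p = 0.867).

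The activating genes of the cluster sense microbial sugars or glycolipids and signal through Fcer1g. Clec4d, also called MCL, was at 123, 528 and 207 RPM in the normocapnia libraries and 175, 112, 294 and 293 RPM in the hypercapnia libraries. Clec4e, which is Mincle and also senses dying cells, was at 63.3, 209.8 and 45.5 RPM in the normocapnia libraries and 81.2, 35.4, 195 and 151 RPM in the hypercapnia libraries. Clec4n, which is Dectin-2, was at 83.3, 122 and 44.2 RPM in the normocapnia libraries and 62.2, 44.9, 112 and 79.8 RPM in the hypercapnia libraries. NC2 was the highest library for each of the 3, HC2 was the lowest for Clec4d and Clec4e, and NC3 was the lowest for Clec4n. Their log2 differences were -0.23 (SE 0.62), 0.18 (SE 0.81) and -0.12 (SE 0.46), all smaller than their errors. Of the low genes, Clec4b1 was at 5.94 to 6.56 RPM in NC1 and NC2, 1.58 RPM in NC3 and 6.03 to 8.34 RPM in hypercapnia, Clec4a4 was at 1.03 to 2.71 RPM, and Clec4b2 was at 0.178, 0.342 and 0.413 RPM in normocapnia and 0.125 to 0.203 RPM in hypercapnia. The Clec4b2 values rest on 2 to 8 reads per library. Its fall by 0.18 (SE 0.07, limma unadjusted p = 0.0389) was under the fold threshold. Clec4b1 and Clec4a2 share 436 bases at 96.3% identity, and whether their amplicons lie in that stretch is not known here.

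**Figure D3:**
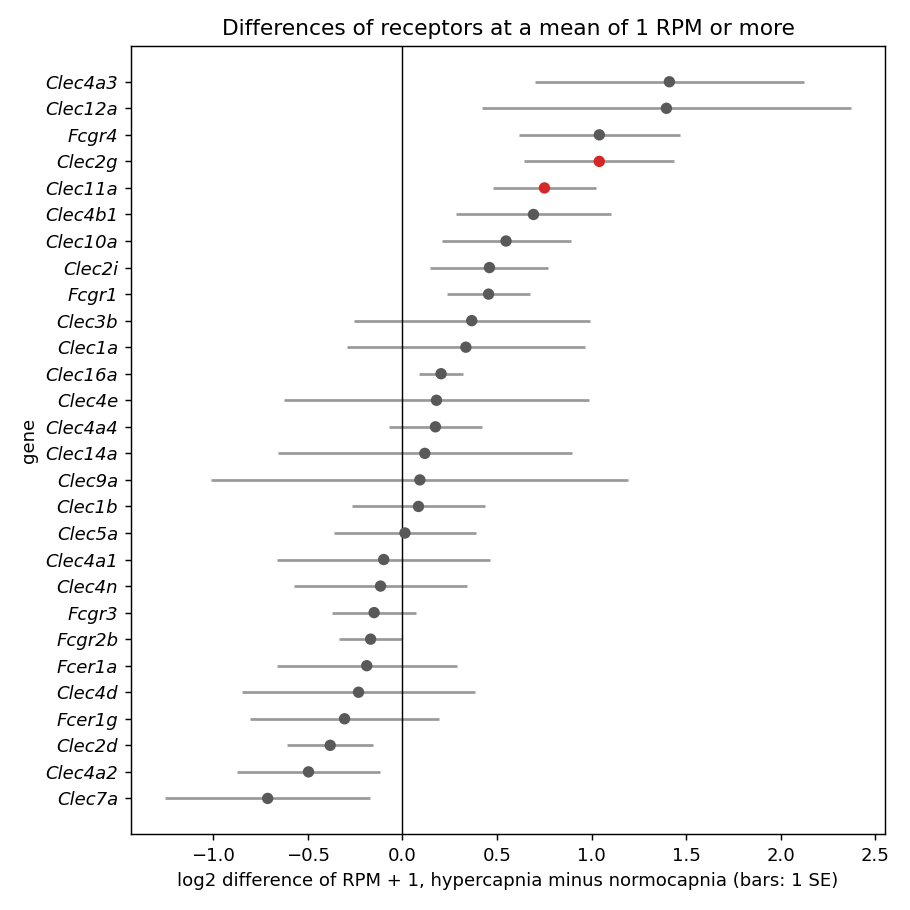
Log2 difference of RPM + 1, hypercapnia minus normocapnia, of the 28 receptor genes that averaged at least 1 RPM, with bars of 1 SE over 3 and 4 libraries. The 2 called genes, Clec2g and Clec11a, are in red, and Clec4a3 (1.41) and Clec12a (1.40) had larger differences on this scale with wider errors.

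Among the other myeloid lectins, Clec10a, the galactose receptor MGL1 of macrophages and dendritic cells, was at 57.3, 117 and 112 RPM in the normocapnia libraries and 137, 157, 90.2 and 163 RPM in the hypercapnia libraries, with a difference of 0.55 (SE 0.34, limma unadjusted p = 0.163). NC1 was lowest and HC4 highest, but HC3 lay below NC2 and NC3. Without NC1 the difference was 0.22 (limma unadjusted p = 0.465) and without HC3 it was 0.73 (limma unadjusted p = 0.0745). Clec10a and Mgl2, its sister gene, share 704 bases at 96.7% identity. Clec5a, a receptor that signals through Tyrobp, was at 45.5, 60.8 and 21.7 RPM in the normocapnia libraries and 47.0, 30.5, 39.7 and 43.3 RPM in the hypercapnia libraries, and its difference was 0.01 (SE 0.37, limma unadjusted p = 0.972). The liver lectins Clec4f and Clec4g were at 0 to 0.551 RPM, and Clec4f had 1 read in all libraries together.

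The Clec2 genes encode ligands for receptors of natural killer cells. Clec2d, the most broadly expressed of them, was at 234, 144 and 197 RPM in the normocapnia libraries and 109, 148, 155 and 172 RPM in the hypercapnia libraries, with a difference of -0.38 (SE 0.23, limma unadjusted p = 0.147). Clec2i was at 14.3, 22.5 and 28.2 RPM in the normocapnia libraries and 37.4, 35.6, 26.6 and 20.2 RPM in the hypercapnia libraries, with a difference of 0.46 (SE 0.31, limma unadjusted p = 0.194). Without NC1 the Clec2i difference was 0.20 (limma unadjusted p = 0.526) and without NC3 it was 0.67 (limma unadjusted p = 0.108). Clec2g was 1 of the 2 called genes, at a low level: it was at 0.312, 0.385 and 0 RPM in the normocapnia libraries and 2.70, 2.81, 0.75 and 0.609 RPM in the hypercapnia libraries. These values rest on 7, 9 and 0 reads in normocapnia and 63, 56, 12 and 9 reads in hypercapnia. The groups did not overlap on the RPM scale, but NC2 and HC4 had 9 reads each, and the 0 of NC3 allows up to 0.207 RPM. The log2 difference was 1.04 (SE 0.40, limma unadjusted p = 0.0425), a call that did not hold when NC1, NC2, NC3, HC1 or HC2 was left out (limma unadjusted p from 0.0748 to 0.125). The size of the Clec2g difference depended on the pseudocount. It was 2.46 with 0.1 RPM and 0.34 with 5 RPM, and 2.90 in DESeq2 and in edgeR. Clec2g and Clec2i are 90.2% identical over 2264 bases, and Clec2i, at 14.3 to 37.4 RPM, was also highest in HC1 and HC2. The part of shared reads in the Clec2g values was not tested. Clec2e, Clec2f and Clec2l stayed at 0 to 0.937 RPM.

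Clec11a, the other called gene, encodes a secreted growth factor of bone marrow and bone and is not a myeloid receptor. It was at 1.78, 1.24 and 0.275 RPM in the normocapnia libraries and 2.14, 2.36, 2.37 and 2.57 RPM in the hypercapnia libraries. All hypercapnia libraries lay above all normocapnia ones, and NC3 was by far the lowest. These values rest on 4 reads in NC3 and on 29 to 50 reads in the other libraries. The log2 difference was 0.75 (SE 0.27, limma unadjusted p = 0.0353), and the exact two-sided permutation test over libraries gave 0.0286, the smallest p that 3 against 4 libraries allow. The same permutation test gave 0.0857 for the other called gene, Clec2g, and 0.114 for Fcgr4 and for Clec4a3. Without NC3 the difference was 0.43, under the fold threshold, and without NC2 or any of the hypercapnia libraries p was 0.0583 to 0.0785, so that the call stood only without NC1. Clec11a and Clec2g were the only 2 of the 28 genes at 1 RPM or more whose groups did not overlap in the higher direction, beside 4.09% of all genes at that level, and 0 of the 28 did so in the lower direction, beside 3.63%. With a library left out, groups of fewer libraries stand apart more often. The count higher was then 5 without NC1 (beside 21.2% of all genes) or HC4 (5.28%) and 4 without NC2 (11.3%), NC3 (5.98%) or HC3 (5.75%), and the count lower was 2 without NC1 (Clec4a2 and Fcgr3, beside 7.85%) and 1 without NC2 (Clec2d, 9.43%) or NC3 (Clec7a, 10.1%).

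The remaining genes of that role were even or low. Clec16a, an endosomal protein named for a lectin-like stretch and expressed by most cells, had the narrowest range of the 28 genes relative to its level. Its highest value was 1.41 times its lowest. It was at 36.5, 44.2 and 32.9 RPM in the normocapnia libraries and 39.1, 43.8, 46.5 and 44.9 RPM in the hypercapnia libraries, with a difference of 0.20 (SE 0.11, limma unadjusted p = 0.128). Clec14a, a protein of endothelial cells, was at 0.812 to 4.37 RPM in normocapnia and 0.402 to 6.91 RPM in hypercapnia, and the endothelial marker Cdh5 was, like Clec14a, highest in HC3 and HC4 and lowest in HC2. Clec3b, or tetranectin, was at 1.03 to 8.85 RPM in normocapnia and 2.48 to 6.77 RPM in hypercapnia. Clec3a and Clec18a had at most 0.187 RPM in any library.

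The libraries with Xist reads and those with Ddx3y reads were then compared apart, a division added after the data had been seen. The first holds NC1 and NC2 against HC1 and HC2, and the second holds NC3 alone against HC3 and HC4, so that its differences cannot be told apart from what is particular to NC3. In both divisions every hypercapnia value was above every normocapnia value for 6 of the 28 genes at 1 RPM or more (Fcgr4, Clec4a3, Clec12a, Clec4b1, Clec2g and Clec11a), beside 10.1% of all genes at that level, and 0 of the 28 were lower in both, beside 7.89%. For 6 other genes (Clec7a, Clec2i, Clec1a, Clec4n, Fcer1g and Fcer1a) the groups stood apart in both divisions but in opposite directions, beside 22.1% of all genes.

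Among the libraries with Xist reads, Clec12a was higher by 1.06 on the log2 scale (SE 0.13, limma unadjusted p = 0.00753), Clec4a3 by 1.19 (SE 0.28, limma unadjusted p = 0.0335), Clec2g by 1.48 (SE 0.04, limma unadjusted p = 0.000208) and Fcgr4 by 1.24 (SE 0.37, limma unadjusted p = 0.0599), each from 2 libraries a group. The Clec2g values rest on 7 and 9 reads in normocapnia and 63 and 56 in hypercapnia. Its small SE reflects only how close the 2 libraries of each group lay. HC1 and HC2 were also a close pair, so these errors and p-values measure only the spread between these libraries. In the same libraries Clec7a fell by 1.75 (SE 0.24, limma unadjusted p = 0.00981) and Clec1a fell by 0.61 (SE 0.15, limma unadjusted p = 0.0415), and Fcgr1 was higher by 0.77 (SE 0.28, limma unadjusted p = 0.091). Fcer1g was higher by 0.38 (SE 0.08, limma unadjusted p = 0.0235), under the fold threshold. In that fit 9.45% of all genes had a limma unadjusted p under 0.05, with 1.6% called higher and 2.64% called lower. In NC3 against HC3 and HC4 the differences were 1.10 for Fcgr4, 2.38 for Clec4a3, 2.79 for Clec12a, 0.75 for Clec7a and -1.61 for Fcer1g, given as values with no test. The difference between the divisions, fitted as an interaction, passed the same thresholds for 12 of the 39 genes, beside 17.9% of all genes. Since 1 of its 4 arms is NC3 alone, whose spread had to be taken from the other libraries, this count describes how far NC3 lies from the rest and is no test of a difference between the divisions.

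**Figure D4:**
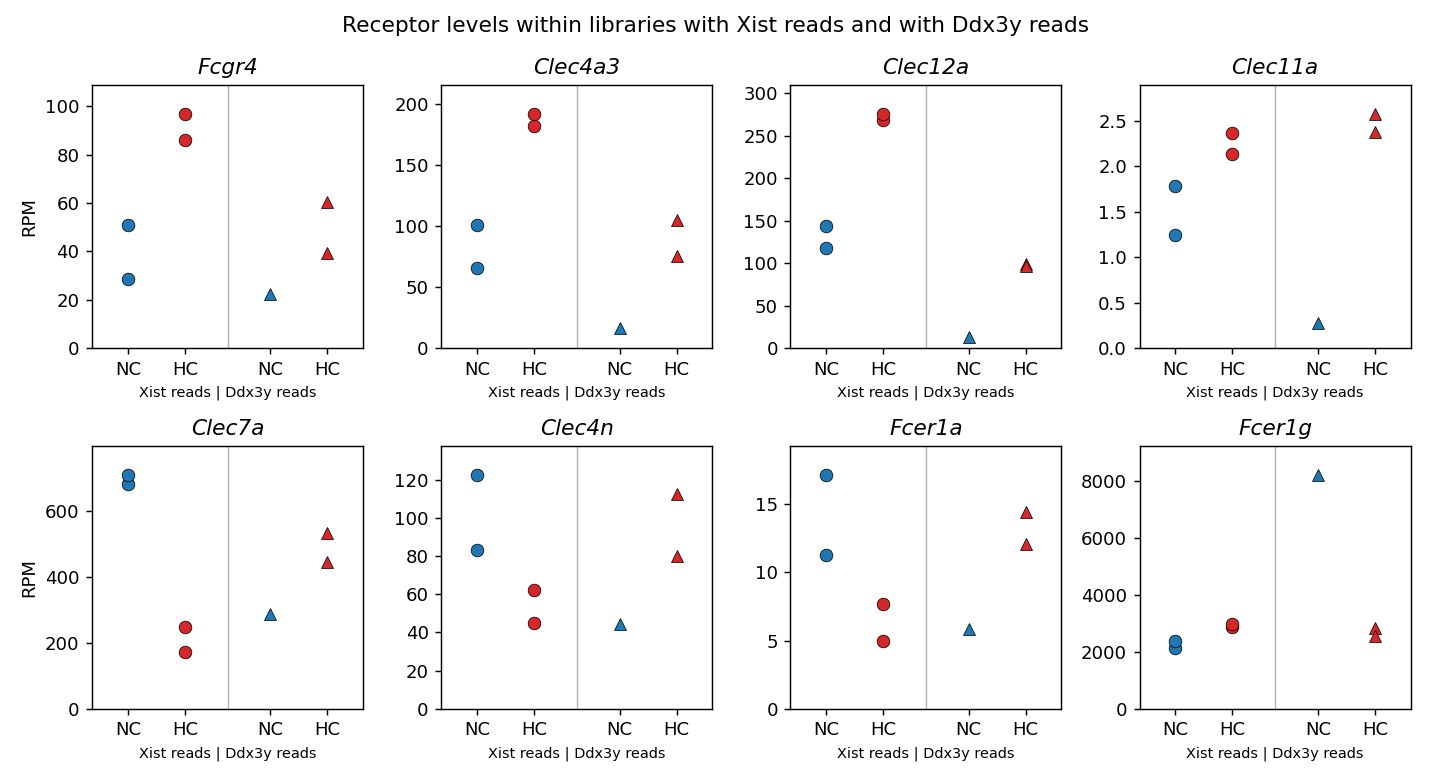
RPM of 8 receptor genes on linear axes from 0, with NC in blue and HC in red, libraries with Xist reads (circles) left of the line and libraries with Ddx3y reads (triangles) right of it. Fcgr4, Clec4a3, Clec12a and Clec11a were higher in hypercapnia on both sides, while Clec7a, Clec4n, Fcer1a and Fcer1g went in opposite directions.

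Genes that carry the signal of these receptors were taken as a list of 36 ITAM pathway genes, all of which were in the table. By the same rule 1 of the 36 was called higher (Blnk) and 0 were lower, beside 1.43% and 1.14% of all genes, and the median log2 difference of the list was 0.36, beside the 0.16 of all genes that averaged at least 1 RPM. With a library left out, the count higher was 11 without NC2 (beside 2.8% of all genes in that fit), 3 without NC3 (0.982%) or HC4 (1.16%) and 2 without HC1 (0.965%), and 2 genes were lower without NC1 (2.07%). Blnk, an adaptor that links Syk to downstream enzymes, was at 65.9, 36.3 and 53.5 RPM in the normocapnia libraries and 155, 177, 113 and 126 RPM in the hypercapnia libraries. Its groups did not overlap and its difference was 1.46 (SE 0.25, limma unadjusted p = 0.00161), the largest of the list. Beside Tyrobp, described above, Sirpa, the inhibitory receptor for CD47, was at 1122, 1168 and 294 RPM in the normocapnia libraries and 1559, 1673, 996 and 945 RPM in the hypercapnia libraries, with NC3 lowest, and Lcp2, the adaptor SLP-76, was at 202, 418 and 190.3 RPM in the normocapnia libraries and 482, 481, 239 and 277 RPM in the hypercapnia libraries. Another 10 genes were taken whose products bind antibodies or belong to the Fc receptor-like family. Of these, 3 were called higher and 0 lower, beside 1.43% and 1.14% of all genes. They were Trim21, a cytosolic antibody receptor, Fcrl1 and Fcrls, and their calls were not followed through the other settings. For 2 of the 10, Trim21 and Fcrl1, the groups did not overlap, beside 4.09% of all genes at 1 RPM or more in the higher direction. Trim21 was at 8.61, 8.89 and 7.85 RPM in the normocapnia libraries and 17.6, 19.4, 15.4 and 13.2 RPM in the hypercapnia libraries, with a difference of 0.87 (SE 0.13, limma unadjusted p = 0.000908) and no overlap. Fcrls, a gene of microglia and other resident macrophages, was at 50.4, 17.1 and 8.54 RPM in the normocapnia libraries and 128, 124, 52.0 and 39.5 RPM in the hypercapnia libraries, with a difference of 1.89 (SE 0.74, limma unadjusted p = 0.0467). Fcrl1, best known from B cells, was at 2.50, 1.62 and 2.68 RPM in the normocapnia libraries and 6.16, 7.14, 5.75 and 3.59 RPM in the hypercapnia libraries, with a difference of 1.01 (SE 0.23, limma unadjusted p = 0.00607) and no overlap. Fcgrt, the neonatal Fc receptor that recycles IgG, was at 146, 163 and 146 RPM in the normocapnia libraries and 311, 400.0, 139.8 and 197 RPM in the hypercapnia libraries, and did not pass the test.

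Of the 10 macrophage markers, 1 was called, and the list had no common direction. Adgre1, which encodes the macrophage antigen F4/80, was the called gene, and the only one of all the marker lists, at 109, 149 and 70.5 RPM in the normocapnia libraries and 392, 429, 151 and 184 RPM in the hypercapnia libraries, a difference of 1.31 (SE 0.49, limma unadjusted p = 0.0403). As for Clec12a, Clec4a3 and Fcgr4, HC1 and HC2 were its highest libraries and NC3 its lowest. The differences of the other markers were -0.33 for Cd163, -0.14 for Csf1r, -0.05 for Mertk, 0.05 for Cd14, 0.25 for C1qa, 0.37 for Mrc1, 0.39 for C1qb, 0.59 for Cd68 and 0.75 for C1qc. Csf1r, Mertk, Cd14 and Cd163 were highest in NC2. With the mean log2 level of the 10 markers as a covariate, 0 of the 39 genes were called, beside 1.51% of all genes called higher and 1.04% called lower in that fit. The differences became 0.72 for Clec11a (limma unadjusted p = 0.0746), 0.82 for Clec2g (limma unadjusted p = 0.0579) and 0.96 for Fcgr4 (limma unadjusted p = 0.108). They moved from 1.40 to 0.94 for Clec12a, from 1.41 to 0.98 for Clec4a3, from 0.093 to 0.64 for Clec9a and from -0.50 to -0.72 for Clec4a2.

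The other lists held no called gene. The 6 dendritic cell markers summed to 50.5 to 263 RPM in normocapnia and 58.9 to 149 RPM in hypercapnia, led by Itgax, Cd209a and Zbtb46, with the defining Flt3 at 0.551 to 5.57 RPM. The 7 neutrophil markers summed to 30.7 to 143 RPM and 13.1 to 176 RPM, led by S100a8, S100a9 and Retnlg, with Ly6g under 1 RPM in all libraries. B-cell markers (3 of the 4 were in the table) summed to 7.78 to 16.2 and 11.0 to 13.1 RPM and T and NK cell markers (7) to 0.551 to 12.4 and 3.72 to 8.18 RPM, with Cd3e and Ncr1 under 1 RPM in all. Platelet markers (5) summed to 385 to 3041 and 1045 to 2739.5 RPM, nearly all from Pf4 and Ppbp, while the defining Itga2b was at 1.38 to 6.91 RPM and Gp9 was under 1 RPM. Endothelial markers (6) summed to 88.5 to 216 and 45.5 to 491 RPM, fibro-adipogenic markers (6 of 7) to 1388 to 2317 and 1306 to 3246 RPM, and the 10 satellite cell and myoblast genes to 537 to 4383 and 855 to 1694 RPM. NC1 held the highest sum of the dendritic, T and NK and satellite cell lists, and the part of any list in the receptor results was not tested beyond the macrophage covariate.

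**Figure D5:**
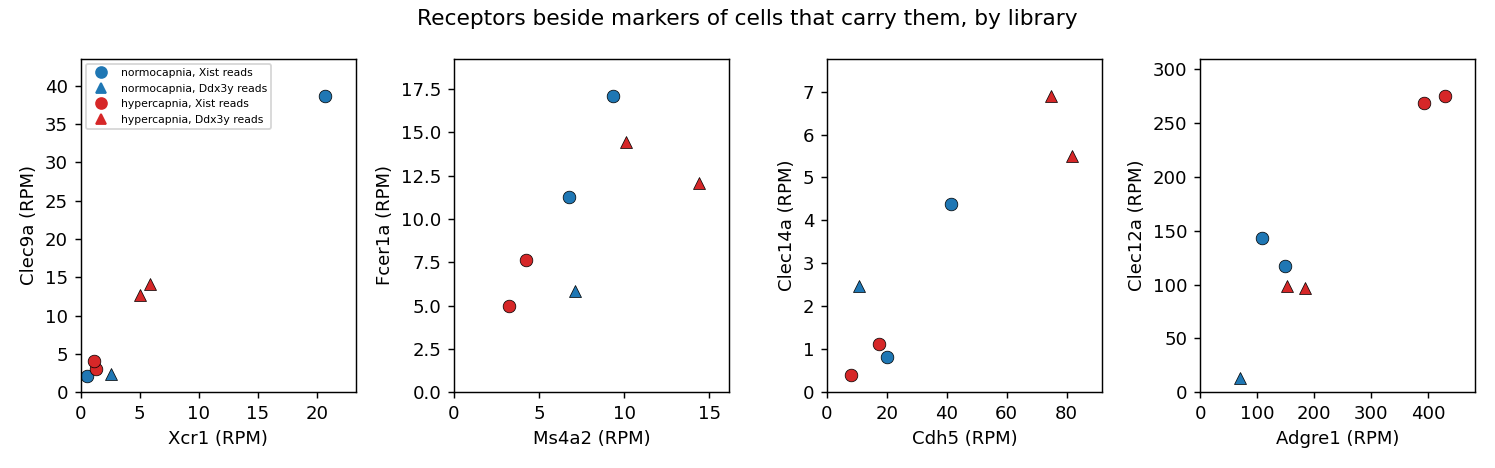
RPM of 4 receptor genes (vertical) against a marker of a cell type known to carry them (horizontal), on linear axes, with 1 point per library, blue for normocapnia, red for hypercapnia, circles for libraries with Xist reads and triangles for Ddx3y reads. Clec9a and Xcr1 were both highest in NC1, and Clec12a and Adgre1 were both highest in HC1 and HC2 and lowest in NC3.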

How the data were processed

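Sorted Pax7-GFP cells of 7 libraries were profiled with the Ion AmpliSeq Transcriptome Mouse panel. The authors deposited 1 table of RPM values, the reads of each amplicon relative to all reads of its library, over 23930 amplicon targets, and the submitters' processing notes name the Transcriptome Analysis Console. The aligner and genome build were not given in the sources used here, the table's title carries 40 hours, at odds with the freshly sorted cells of labels and methods, and no other sample columns were present (0). RPM values were whole multiples of 1 read (100% within 0.05 read), so read totals were recovered as depth. Intervals and floors of 3 reads cover counting error only.

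Values were fitted as log2(RPM + 1) over all genes with limma 3.58.1 in R 4.3.3, with no filter, no covariate and 3 against 4 libraries. A call was an unadjusted p under 0.05 with a fold above 1.5, with Benjamini-Hochberg values beside it. Fold changes on this scale understate changes of low genes. Alternatives used edgeR 4.0.16 and DESeq2 1.42.0 on recovered reads, other pseudocounts (0.1 and 5 RPM), scalings, a mean of 1 RPM or more, covariates, a replicate block and libraries left out. Scripts were tested on simulated data. No library pair agreed within sampling noise, although HC1 and HC2, and HC3 and HC4, were much closer than other pairs. Full values were given for genes called, at a mean of 10 RPM or more, or without overlap at 1 RPM or more. The members, gene lists and tests were chosen with earlier results of these data known. Transcript identity came from blastn 2.17.0 on GENCODE M21, the longest coding transcript per gene, and promoters from RefSeq GRCm38.p6.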

Additional observations from a re-analysis of the deposited data

Results flagged for a closer look

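For 12 receptor genes the interaction of exposure with the division into libraries with Xist reads and with Ddx3y reads passed an unadjusted p under 0.05 and a fold above 1.5 in limma, as did 17.9% of all genes. The division was made after the data were seen, and the only normocapnia library with Ddx3y reads was NC3, whose spread was assumed to be that of the other libraries. The values cannot be told apart from what is particular to NC3, and are given as a description with no test. The interaction (difference with Ddx3y reads minus difference with Xist reads, log2 scale) was 2.50 for Clec7a, 2.004 for Clec4n, 1.87 for Clec1a, 2.10 for Fcer1a, 2.58 for Clec3b and 1.37 for Clec5a, genes with lower values in hypercapnia among libraries with Xist reads and higher values among the others. It was 1.07 for Clec11a, 1.35 for Clec4b1 and 1.73 for Clec12a, which were higher in both. It was -0.73 for Clec2g, which was higher in both with the larger difference among libraries with Xist reads, and -1.99 for Fcer1g and -0.91 for Fcgr3, which were higher among libraries with Xist reads and lower among the others.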

How the results depend on the processing

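The 2 genes called higher in limma were both at 1 to 2 RPM on average, and their calls depended on the setting. In brackets is the share of all genes called higher in the same fit. DESeq2 called 4 higher, Clec11a, Clec2g, Clec4a3 and Fcgr4 (2.49%), Xist as a covariate 5, the same 4 and Clec12a (3.4%), edgeR 2, Clec2g and Fcgr4 (2.21%), edgeR without a filter 3, these and Clec4a3 (1.89%), a mean of 1 RPM or more 2, Clec2g and Fcgr4 (2.76%), the replicate block 3, Clec2g, Clec4a3 and Fcgr4 (1.47%), and the libraries with Xist reads alone 3, Clec12a, Clec2g and Clec4a3 (1.6%). Median-of-ratios scaling called 1, Clec11a (1.32%), a pseudocount of 0.1 RPM 1, Clec2g (1.83%), and a pseudocount of 5 RPM (1.12%), quantile normalization (1.4%) and the macrophage covariate (1.51%) called 0. Leaving out 1 library gave 0 to 2 called higher and 0 to 1 called lower. The count called lower was 0 in limma, 1 with a pseudocount of 0.1 RPM (Clec4b2, beside 1.69% of all genes called lower) and 2 in the libraries with Xist reads alone (Clec1a and Clec7a, beside 2.64%). Quantile normalization left 0 genes without overlap in the higher direction, for which no share of all genes was computed. Leaving out a library gave 2 to 5 without overlap higher, beside 4.73% to 21.2% of all genes at 1 RPM or more. It gave 0 to 2 lower, beside 4.02% to 10.1%.

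The ITAM list had 1 gene called higher in limma. Beside the shares of all genes just given, counts were 2 with DESeq2, edgeR with or without a filter, a mean of 1 RPM or more, a pseudocount of 0.1 RPM, the macrophage covariate or the libraries with Xist reads alone, and 3 with Xist as a covariate, quantile normalization or the replicate block. Leaving out a library gave 1 to 11, with 11 without NC2. The count called lower was 1 under quantile normalization (beside 1.49% of all genes) and in the libraries with Xist reads alone (2.64%), and 0 to 2 with a library left out. The median difference of the 28 genes was 0.15 and became 0.75 in the libraries with Ddx3y reads alone, whose normocapnia arm is NC3. It was negative in the libraries with Xist reads alone (-0.077), with quantile normalization (-0.076) and without HC4 (-0.03), and was 0.33 without HC2 and 0.32 without NC2.

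Of the 22 genes with full values, for which alternatives were run, the sign of an uncalled difference turned for 9. Clec9a became -0.65 with DESeq2 and with edgeR without a filter, -0.61 with edgeR, -1.32 in the libraries with Xist reads alone, -0.0035 with median-of-ratios scaling, -0.082 with a pseudocount of 5 RPM, -0.24 with quantile normalization and -0.21 with the replicate block. Clec5a became -0.18 with DESeq2, -0.15 and -0.14 with edgeR without and with a filter, -0.46 in the libraries with Xist reads alone, -0.12 with the macrophage covariate and with median-of-ratios scaling, -0.13 with quantile normalization and -0.028 with the replicate block. Clec4e became -0.046 with DESeq2, -0.0395 and -0.0145 with edgeR without and with a filter, -1.09 in the libraries with Xist reads alone and -0.034 with the replicate block. In the libraries with Xist reads alone Fcer1g became 0.38, Fcgr3 0.21 and Clec4a1 0.60, and Clec4a1 became 0.029 with the replicate block. With 1 library left out the differences ran from -0.53 to 1.29 for Clec9a, from -0.40 to 0.32 for Clec5a, from -0.51 to 0.22 for Clec4n, from -0.26 to 0.83 for Clec4e, from -0.71 to 0.34 for Clec4d, from -0.66 to 0.32 for Fcer1g, from -0.56 to 0.14 for Fcer1a, from -0.36 to 0.0443 for Fcgr3 and from -0.74 to 0.40 for Clec4a1. In all, 329 of 418 comparisons of a gene's difference with an alternative kept their sign and their side of the threshold. Most of these genes were uncalled, and for them this means staying uncalled. Of the 2 called genes, Clec11a kept its call in 4 alternatives and lost it in 15. Clec2g kept its call in 10 and lost it in 9. The cause of these changes was not tested.

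Same-numbered libraries did not deviate together (correlations of -0.324, 0.497 and -0.0144 over 12504 genes), so the numbers were not taken to pair them. HC4 has no partner of its number, so the replicate block was fitted without it, and each difference under the block, the median of -0.03 included, equals that without HC4: the block itself changed the errors and calls only. Differences under the 3-read limit of 0.128 to 0.207 RPM were not detectable at this depth.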
